A study of Mus musculus with 24 samples.

Results

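The genes described here belong to the amino acid response and to cytosolic tRNA charging: 33 genes taken by name, comprising 5 transcription factors, 4 effectors, 8 enzymes of amino acid and one-carbon synthesis, 4 amino acid transporters and 12 tRNA ligases. Members were found by gene symbol. Of the 33 genes, 32 had a probe on the array, Pycr1 being the one for which no probe was matched, and 29 passed a filter that asked for a detection p-value under 0.05 on at least 4 of the 24 arrays. Psph was detected on 0 arrays, Slc3a2 on 2 and Slc7a11 on 3, so no level is given for these 3 genes. Together the members had 53 probes, of which 46 passed the filter, among 25697 probes on the array and 14927 that passed.

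In the amino acid response, uncharged tRNA activates the kinase GCN2, which phosphorylates the translation factor eIF2alpha. General translation then slows while the mRNA of the transcription factor ATF4 is translated more. ATF4, often paired with C/EBP proteins, binds composite elements near genes for amino acid synthesis, amino acid transport, tRNA charging and feedback regulators. Other kinases that respond to endoplasmic reticulum stress, haem shortage or viral RNA converge on the same factor, a convergence known as the integrated stress response. tRNA ligases, also called aminoacyl-tRNA synthetases, join each amino acid to its tRNA.

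Total RNA was measured on 24 Illumina bead arrays. The tissue was the unsegmented caudal end, the part of the mouse embryo at the tail that has not yet formed somites, and it was taken on embryonic days E8.5, E8.75 or E9.0. Knockout embryos of strain C57Bl/6 had the genotype Srf(-/-), lacking serum response factor, a transcription factor that controls actin cytoskeleton and immediate early genes. Control embryos of the same strain were titled wild type in the labels but carried the genotype Srf(+/-), so the comparison sets homozygous against heterozygous loss. Per the labels' breeding scheme both parents were SRF(flex1/+); T:cre/T:cre, so controls carried the Cre transgene too. The T (brachyury) promoter is active in the primitive streak and the mesoderm that leaves it, which limits the deletion to those cells and their progeny. Each of the 6 groups had 4 arrays; the labels do not say how many embryos or litters these represent, and the p-values therefore measure the spread between arrays.

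Median raw intensities ranged from 36.8 to 45.9 on the E8.5 arrays and from 36.8 to 38.9 on the E9.0 arrays, but from 145.1 to 173.3 on the E8.75 arrays, and between 11329 and 13685 probes were detected. The E8.75 arrays were brighter and more variable, with a median within-group SD of 0.26 against 0.18 at E8.5 and 0.16 at E9.0 on the log2 scale. They were therefore fitted apart, and no change with stage was drawn from them, because stage and array brightness cannot be told apart there. Srf itself fell by 1.09 (SE 0.12) at E8.5 and fell by 0.81 (SE 0.12) at E9.0 on the log2 scale, with limma adjusted p-values of 0.000594 and 0.000305. At E8.75 the Srf difference was -1.0 (SE 0.32, limma adjusted p = 0.53). Of 12 caudal end markers, 10 were measured and 0 were called in any knockout comparison, while 0, 1 and 2 of them in order of stage had an unadjusted p under 0.05; T and Msgn1 were not matched to a tested probe.

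Motif matches in the promoters of the members are shown first because several members carry one shared motif. RefSeq promoter windows (build GRCm38.p6, 250 bases before to 50 bases after each start) were found for 27 of the 33 members. Slc7a5, Slc7a3, Cars, Lars, Nars and Wars had no entry in the table used. The 8-letter composite TGATGNAA, searched on both strands, stood in 12 of the 27 members (44.4%) and in 1219 of 27025 genes (4.51%). The string ACGTG, which is part of the E-box CACGTG, stood in 10 members (37.04%) and in 21.8% of genes. Both motifs stood in 4 members, and matches were counted whether or not they overlapped. For the third motif, the CArG box that SRF binds, a match stood in 0 members and in 1.81% of genes. A match of letters is a description and not a binding site. The members were chosen by name, many as known genes of the ATF4 response. Their higher share of the composite is therefore no independent result. For Chac1, whose change at E9.0 was the largest of the members, the 250 bases before the start are printed 5′ to 3′ with the composite in capitals (chr2:119350992-119351241, plus strand). The motif there reads on the opposite strand and begins at position -193 from the start, where negative positions lie before it.
Chac1: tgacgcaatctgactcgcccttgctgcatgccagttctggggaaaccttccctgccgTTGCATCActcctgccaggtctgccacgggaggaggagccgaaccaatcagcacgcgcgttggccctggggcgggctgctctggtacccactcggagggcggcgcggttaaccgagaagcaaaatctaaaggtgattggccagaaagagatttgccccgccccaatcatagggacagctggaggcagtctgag

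The same composite, again in capitals within 28 bases, is shown for 5 other members. At E9.0 Vldlr rose as Chac1 did, Yars fell, and Asns, Trib3 and Tars were not called. The windows are from chr19:27216810-27216837 for Vldlr, chr4:129189896-129189923 for Yars, chr6:7693215-7693242 for Asns, chr2:152344029-152344056 for Trib3 and chr15:11399656-11399683 for Tars. Asns, Trib3 and Tars lie on the minus strand and the others on the plus strand, and each is printed in the direction of its gene. Vldlr has several starts in the table, and its window comes from the one whose promoter holds the composite.
Vldlr: gcagcaatagTTGCATCAgcgctcctag
Yars: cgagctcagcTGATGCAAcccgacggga
Asns: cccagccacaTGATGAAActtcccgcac
Trib3: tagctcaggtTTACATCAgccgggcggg
Tars: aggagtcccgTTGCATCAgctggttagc
Among the 10 tested members that carry the composite, 2 rose, 1 fell and 7 were not called at E9.0, with a median log2 fold change of 0.00. Among the 13 tested members whose window lacked it, 1 rose, 0 fell and 12 were not called, with a median of -0.05. Over all features 10.6% rose and 8.98% fell, and whether calls differed between these groups of members was not tested.

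At E8.5 none of the 29 tested members was called between knockout and control. A call means a limma p-value under 0.05 after Benjamini-Hochberg adjustment over all 11008 features tested. The background was 0.0636%, or 7 of the 11008 features, and 1 member had an unadjusted p under 0.05, against 3.65% of features. The members' log2 fold changes ran from -0.32 for Psat1 to 0.25, with a median of -0.02 against 0.00 for all features. Gars was the only member whose 4 knockout arrays all lay on one side of the 4 control arrays, at a difference of -0.19 (SE 0.08, limma adjusted p = 0.99), while 2.03% of all features showed such separation.

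At E8.75 again none of the 29 members was called, against 0.0454% or 5 of 11008 features. The differences ran from -0.43 for Mars1, the methionine ligase, to 0.36 for Vldlr, with a median of -0.07 against 0.00 for all features, and 1 member had an unadjusted p under 0.05, against 6.38% of features. Mars1 was the only member with separated groups (background 4.01%; limma adjusted p = 0.61). Of the 11 measured visceral yolk sac endoderm markers, 0 were called at this stage although 11 had an unadjusted p under 0.05, and their mean log2 signal was 6.65 to 9.0 on the knockout arrays and 5.43 to 6.37 on the control arrays. Its part in the members' values at E8.75 was not tested.

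At E9.0, 5 of the 29 members were called: Chac1, Vldlr and Sars rose in the knockouts, and Wars and Yars fell. They are read by probes ILMN_2617468 (Chac1), ILMN_2796472 (Vldlr), ILMN_2871412 (Sars), ILMN_1254157 (Wars) and ILMN_2439632 (Yars). The share of 17.2% stood near the background of 19.6%, or 2158 of 11008 features, so the number of calls does not set the members apart. The rises were 3 of 29 members against 10.6% of features, and the falls 2 of 29 against 8.98%, while 9 members had an unadjusted p under 0.05 against 33.4% of features. The arrays of knockout and control did not overlap for 8 of the 29 members, against 25.5% of features. The members' median log2 fold change was -0.08, against 0.01 over all features. Median scaling in place of quantile normalization lowered the median of all features to -0.09 and that of the members to -0.21, and left 2 called members, Chac1 above and Wars below. With all 24 arrays in 1 fit, 4 members rose and 0 fell.

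**Figure D1:**
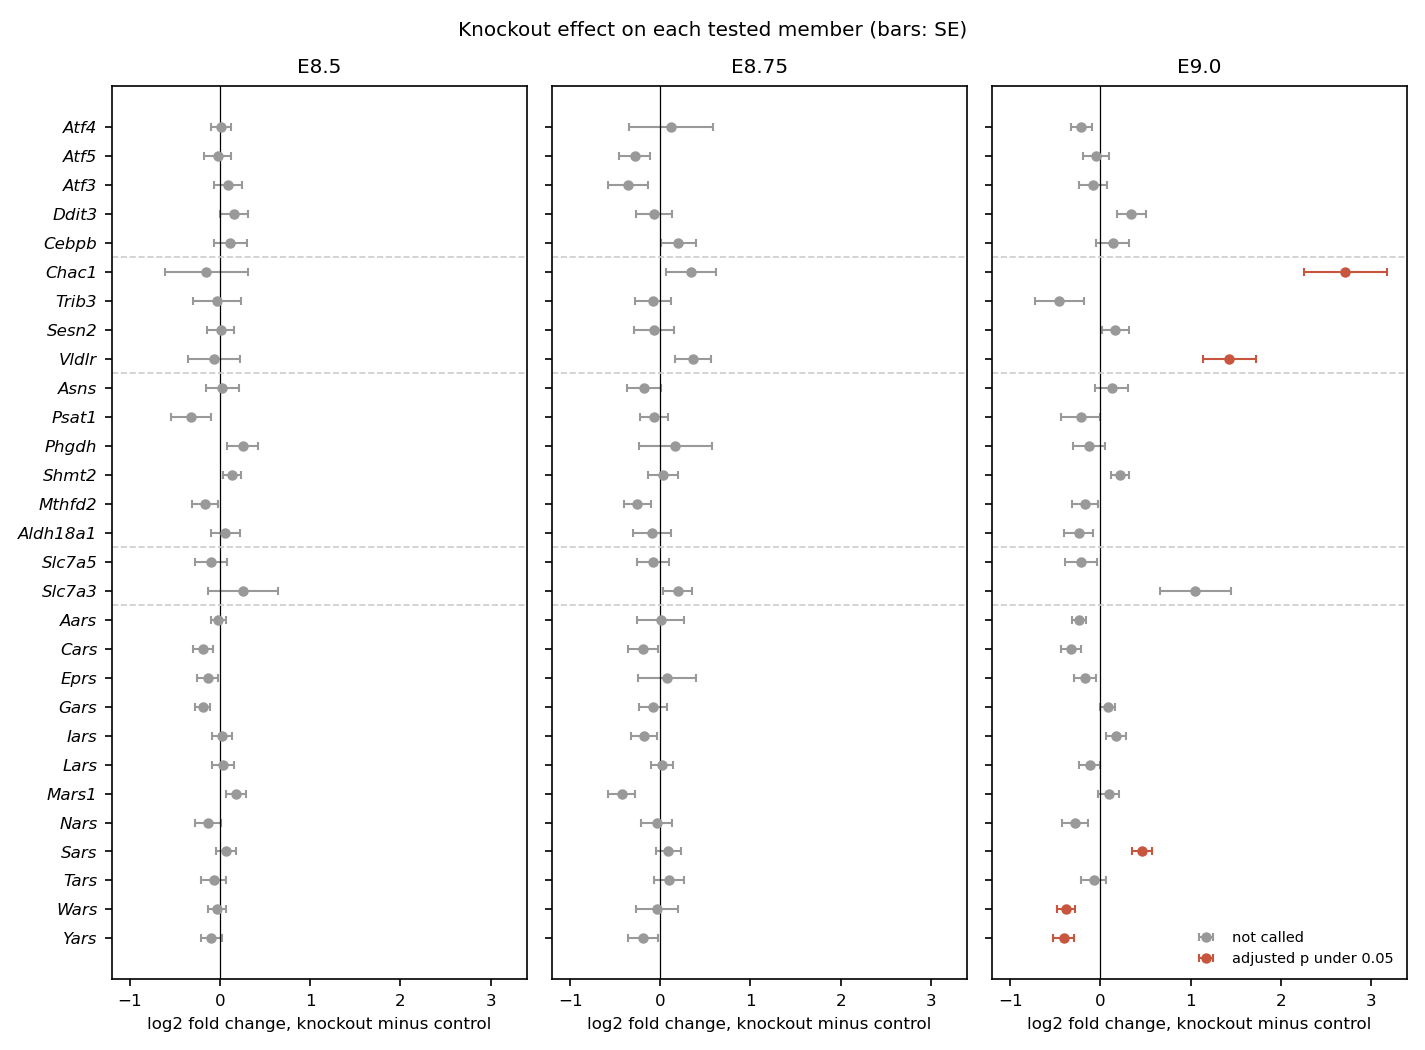
Knockout minus control log2 fold change with its SE for each of the 29 tested members at each stage, grouped by role from transcription factors at the top to tRNA ligases at the bottom; red points passed an adjusted p of 0.05. At E8.5 and E8.75 none did, and at E9.0 Chac1 (2.72) and Vldlr (1.43) lie far to the right while the ligases lie between -0.41 and 0.47.

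Atf4, which encodes the central transcription factor of the response, is controlled mainly by translation, so its mRNA reports only part of its activity. At E9.0 its log2 signal was 10.21, 10.24, 10.33 and 10.56 in the 4 controls and 9.91, 10.06, 10.36 and 10.16 in the 4 knockouts. The groups overlapped, and the difference of -0.21 (SE 0.11) was not called (limma adjusted p = 0.20). At E8.5 controls read 10.03, 9.99, 10.20 and 10.09, and knockouts read 9.97, 9.99, 10.08 and 10.30, a difference of 0.01. At E8.75 controls read 9.31, 7.14, 9.14 and 9.86, and knockouts read 8.82, 8.95, 9.34 and 8.81. One control, replicate 2, lay far below all others at that stage, and the SD of the controls was 1.19 against 0.25 in the knockouts.

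None of the other 4 transcription factors was called between knockout and control at E9.0; of all 5, 1 had an unadjusted p under 0.05. Ddit3, which encodes CHOP, a factor that ATF4 induces in prolonged stress, read 6.24, 6.49, 6.74 and 7.18 in controls and 6.84, 6.94, 7.12 and 7.13 in knockouts. All 4 knockout values lay within the control range, and the difference was 0.35 (SE 0.16, limma adjusted p = 0.13). A second Ddit3 probe gave 0.34. Atf5 and Atf3, bZIP factors regulated together with ATF4, differed by -0.05 and -0.08, and Cebpb, which encodes a partner that dimerizes with ATF4, by 0.14.

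Chac1 encodes an enzyme that degrades glutathione and is a well-known target of the ATF4 and CHOP pathway. At E9.0 its log2 signal was 5.36, 5.45, 5.41 and 5.66 in controls and 6.43, 7.82, 10.05 and 8.44 in knockouts. Every knockout array lay above every control array, but the knockouts spread widely, with an SD of 1.5 (n = 4) against 0.13 (n = 4). The mean difference was 2.72 (SE 0.46), 6.57-fold, with a limma adjusted p of 0.000874. The SEs of Chac1 in this fit use a spread shared by the E8.5 and E9.0 groups. The SD was 0.16 in either E8.5 group, so this SE understates the spread among the E9.0 knockouts. The difference was 2.38 when normalized within the arrays of the fit, 2.15 under median scaling and 2.11 with an offset of 50. It was 1.78 in the deposited value table, and the call held in each. Leaving out replicate 3, the highest knockout, gave 2.09 (limma adjusted p = 0.000597). Chac1 is read by a single probe on this array.

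At the earlier stages Chac1 showed no such separation. At E8.5 controls read 5.99, 6.26, 5.88 and 5.99 and knockouts read 5.94, 6.07, 5.74 and 5.74. At E8.75 controls read 4.62, 5.80, 5.79 and 4.88, with 2 of the 4 arrays above background, and knockouts read 5.4, 5.46, 6.00 and 5.58. The knockout effect at E9.0 exceeded that at E8.5 by 2.87 (SE 0.65, limma adjusted p = 0.037), the one member called in that test, where the background was 1.64% or 180 features. This call held in 6 of 10 alternative settings (limma adjusted p from 0.021 to 0.20) and in 4 of the 16 fits that left out an array, with the difference between 1.86 and 3.45 in all of them.

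Vldlr encodes the very low density lipoprotein receptor, whose gene ATF4 can induce and which is also known as a target of hypoxia signalling. At E9.0 controls read 8.02, 8.15, 8.30 and 8.25 and knockouts read 9.53, 9.66, 9.89 and 9.35. The groups were separated by about a unit, and the difference was 1.43 (SE 0.29), 2.69-fold, with a limma adjusted p of 0.00303. At E8.5 controls read 9.49, 9.46, 9.43 and 9.59 and knockouts read 9.47, 9.96, 10.14 and 8.13. Replicate 4 of the E8.5 knockouts lay more than a unit below the other arrays of that stage, and the difference was -0.07. At E8.75 controls read 9.46, 9.98, 9.46 and 10.34 and knockouts read 10.15, 10.07, 10.25 and 10.22.

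By the brightest probe, the E9.0 controls were the low group for Vldlr. In controls Vldlr fell by 1.31 (SE 0.29) from E8.5 to E9.0 (limma adjusted p = 0.00244), while in knockouts the change was 0.18 (SE 0.29, limma adjusted p = 0.67). The difference between the knockout effects at E9.0 and E8.5 was 1.498 (SE 0.41) and was not called (limma adjusted p = 0.078). Of 5 Vldlr probes, 4 were tested, and at E9.0 they gave 1.43, 1.10, 1.18 and 0.50, each with a limma adjusted p under the threshold when every probe was tested. From E8.5 to E9.0 the next brightest probes fell by 1.13 and 1.24 in controls. The dimmest tested probe, detected on 9 arrays, changed by -0.06 in controls (limma adjusted p = 0.75). In knockouts that probe rose by 0.47 (limma adjusted p = 0.012). Under median scaling the Vldlr difference of the brightest probe was not called (limma adjusted p = 0.061).

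Trib3, a pseudokinase that restrains ATF4 and CHOP, and Sesn2, a leucine sensor that inhibits mTORC1, were the other effectors, and neither was called at E9.0. Trib3 read 5.17, 4.68, 5.81 and 6.47 in controls and 4.95, 4.67, 5.46 and 5.24 in knockouts, a difference of -0.45 (SE 0.27, limma adjusted p = 0.25). It was detected on 3 of 4 arrays in each of these groups and on 0 or 1 array in each of the other groups, so its values stood close to background. Sesn2 differed by 0.17 (SE 0.15).

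**Figure D2:**
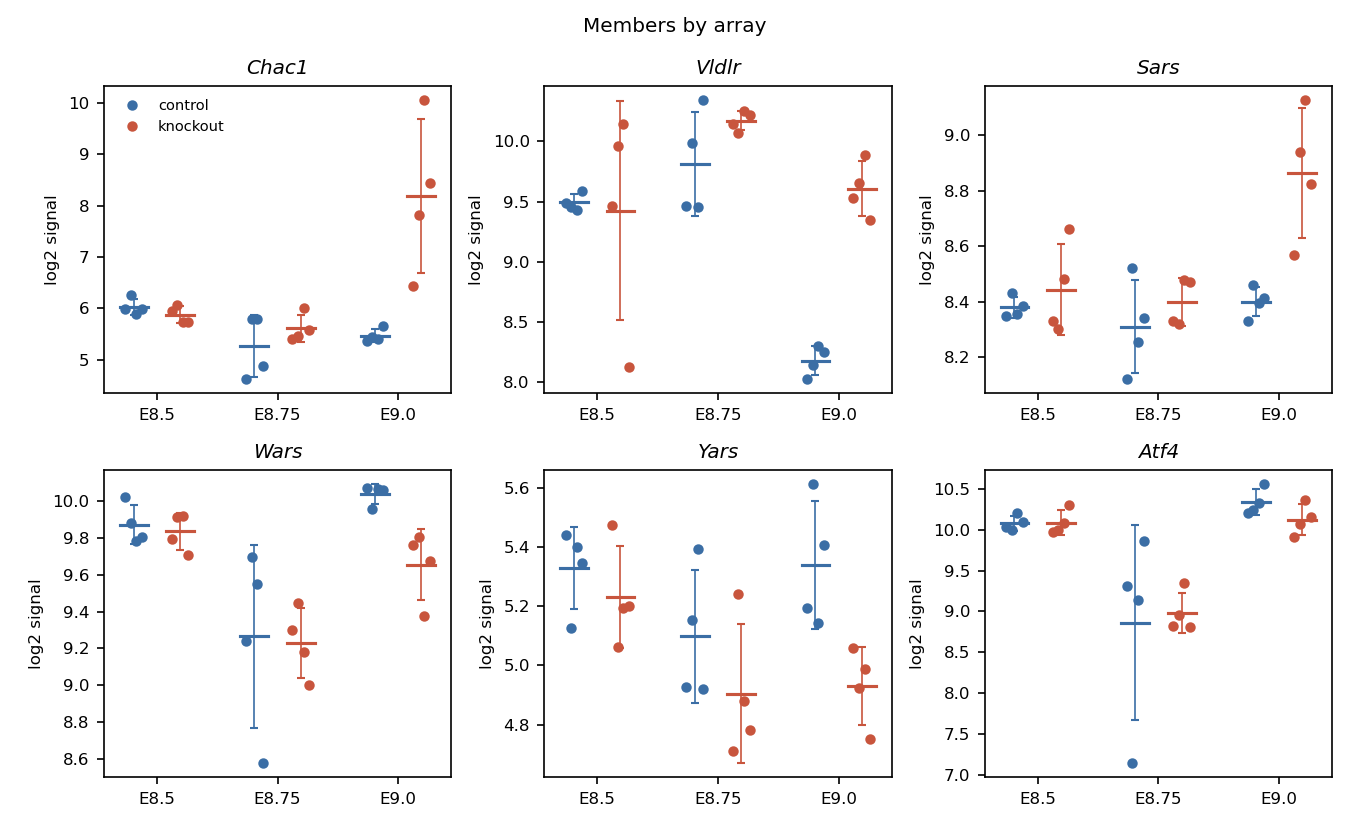
Log2 signal on every array for the 5 called members and Atf4, by stage and genotype; each point is an array, the horizontal line the group mean and the bar 1 SD (n = 4). At E9.0 the knockout arrays of Chac1 (6.43 to 10.05), Vldlr and Sars lie above the controls, those of Wars and Yars lie below, and those of Atf4 overlap.

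None of the 6 tested synthesis enzymes was called at E9.0, 0 had an unadjusted p under 0.05, and their median difference was -0.15. Asns, asparagine synthetase and a classical target of the response, read 10.96, 10.67, 11.14 and 11.16 in controls and 10.83, 10.90, 11.71 and 11.00 in knockouts. The groups overlapped and the difference was 0.13 (SE 0.18, limma adjusted p = 0.69). The dimmer Asns probes gave -0.38 and -0.19, so the 3 probes did not share a direction. The enzymes of serine synthesis, Phgdh and Psat1, differed by -0.13 (SE 0.17) and -0.22 (SE 0.22). In mitochondrial one-carbon metabolism Shmt2 differed by 0.22 (SE 0.10) and Mthfd2 by -0.17 (SE 0.15), and Aldh18a1, which starts proline synthesis from glutamate, by -0.24 (SE 0.16).

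Of the transporters, Slc7a5 and Slc7a3 were measured. Slc7a3, a carrier of arginine and lysine, read 7.0, 6.62, 6.70 and 7.20 in controls and 7.26, 7.53, 9.10 and 7.85 in knockouts at E9.0. All knockout arrays lay above all controls, by a narrow gap for replicate 1, and the difference of 1.05 (SE 0.39), 2.08-fold, was not called (limma adjusted p = 0.066). Without replicate 3 it was 0.67. At E8.5 the 3 lowest knockouts read 7.29, 7.34 and 7.47 and replicate 4 read 9.11, so single high arrays occurred at both stages. Slc7a3 lies on the X chromosome, and Xist read above Kdm5d, an order found in tissue from females, on 3 of the 4 control and all 4 knockout arrays at E9.0. The order held on 2 control arrays and 1 knockout array at E8.5, and on 1 control array and 4 knockout arrays at E8.75. The part of embryo sex in these values was not tested. Slc7a5, the light chain of the leucine carrier whose heavy chain is Slc3a2, differed by -0.22 (SE 0.18, limma adjusted p = 0.43).

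Of the 12 tRNA ligases, 1 rose, 2 fell and 9 were not called at E9.0, with a median of -0.14. The 25% called stood near the background of 19.6% of features, of which 10.6% rose and 8.98% fell. Sars, the serine ligase, read 8.33, 8.46, 8.40 and 8.41 in controls and 8.57, 8.94, 9.13 and 8.82 in knockouts. Every knockout lay above every control, and the difference was 0.47 (SE 0.11), 1.38-fold, with a limma adjusted p of 0.00757. Its second, dimmer probe gave 0.25 (limma adjusted p = 0.22). Under median scaling the difference was 0.21 and was not called (limma adjusted p = 0.34). At E8.5 the controls read 8.35, 8.43, 8.35 and 8.38 and the knockouts 8.33, 8.30, 8.48 and 8.66. At E8.75 the controls read 8.12, 8.52, 8.26 and 8.34 and the knockouts 8.33, 8.32, 8.48 and 8.47, so the groups overlapped at both earlier stages.

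Wars, the tryptophan ligase, read 10.07, 9.96, 10.07 and 10.06 in controls and 9.76, 9.80, 9.38 and 9.68 in knockouts at E9.0. Every knockout lay below every control, and Wars fell by 0.38 (SE 0.10), 1.30-fold, with a limma adjusted p of 0.0129. The 3 dimmer Wars probes gave -0.42, -0.49 and -0.41, so all 4 probes pointed the same way. With all 24 arrays in 1 fit the same difference was not called (limma adjusted p = 0.13). At E8.5 controls read 10.02, 9.88, 9.78 and 9.80 and knockouts read 9.80, 9.91, 9.92 and 9.71. At E8.75 controls read 9.24, 9.70, 9.55 and 8.58 and knockouts read 9.30, 9.45, 9.18 and 9.0, with both groups again overlapping.

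Yars, the tyrosine ligase, was dim throughout. At E9.0 controls read 5.19, 5.61, 5.14 and 5.41, all 4 above background, and knockouts read 5.06, 4.93, 4.99 and 4.75, 3 of them above background. The groups did not overlap, and Yars fell by 0.41 (SE 0.12), 1.33-fold, with a limma adjusted p of 0.0248. The call was lost under 3 of 11 alternatives and when control replicate 2 or 4 or knockout replicate 2 or 4 at E9.0 was left out, with limma adjusted p-values of 0.09, 0.066, 0.053 and 0.078. At E8.5 controls read 5.44, 5.13, 5.4 and 5.35 and knockouts read 5.47, 5.06, 5.19 and 5.2. At E8.75 controls read 4.93, 5.15, 5.39 and 4.92 and knockouts read 4.71, 5.24, 4.88 and 4.78, with 2 and 1 of 4 arrays above background.

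Among the other ligases, Aars for alanine and Cars for cysteine lay just outside the threshold with separated groups. Aars differed by -0.24 (SE 0.08, limma adjusted p = 0.052), and passed in 6 of 11 alternatives. Cars differed by -0.32 (SE 0.11, limma adjusted p = 0.051) and was above background on 4 control and 1 knockout arrays at E9.0. Iars, Mars1 and Gars, for isoleucine, methionine and glycine, differed by 0.17, 0.09 and 0.08, and Nars, Eprs, Lars and Tars, for asparagine, glutamate with proline, leucine and threonine, by -0.28, -0.17, -0.12 and -0.07. None of these 7 was called.

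**Figure D3:**
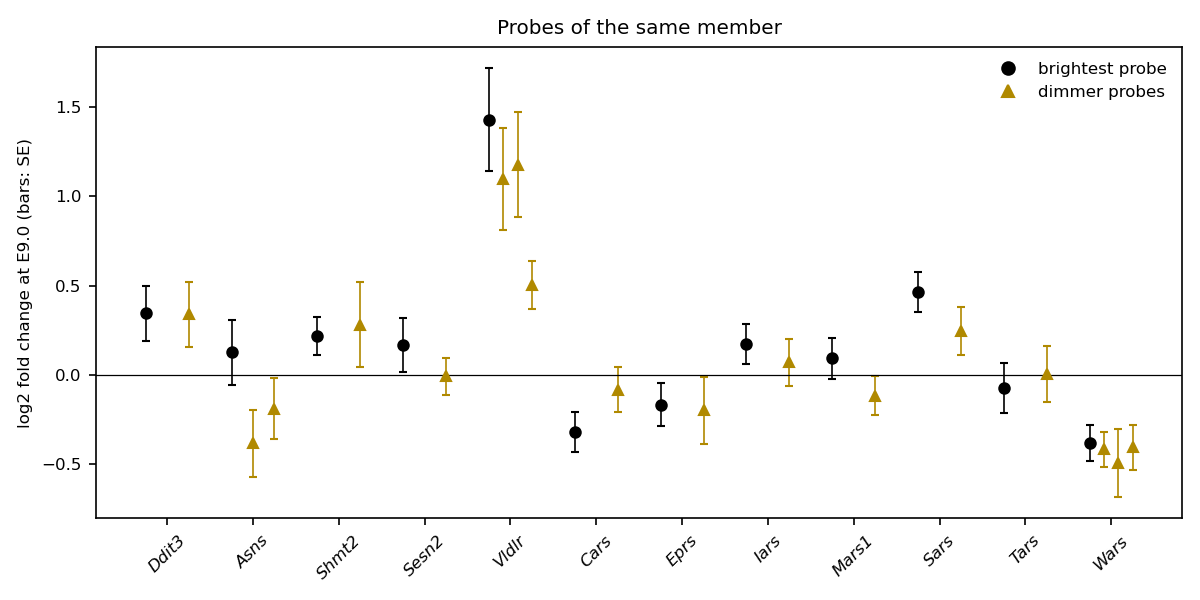
Knockout minus control log2 fold change at E9.0 with its SE for every tested probe of the members with more than 1, the brightest probe of each gene as a black circle and dimmer probes as triangles. The 4 Vldlr probes (0.50 to 1.43) and the 4 Wars probes (-0.49 to -0.38) each lie on one side of 0, while the Asns probes lie on both.

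The knockout arrays at E9.0 were not alike in the members' levels. Replicate 3 was the highest of the 4 knockout arrays for 21 of 29 members (72.4%), against 29.2% of all features, and its mean log2 signal over the members was 8.84 against 8.37, 8.39 and 8.48 for replicates 1, 2 and 4. Replicate 3 was the highest for Chac1, Vldlr, Slc7a3, Asns, Sesn2 and Sars, and the lowest for Wars and Aars. Among the controls, replicate 4 was the highest for 14 of 29 members (48.3%), against 20.5% of features. These arrays were singled out after their values were seen, so the counts are descriptions. Without knockout replicate 3, 5 members were again called at E9.0, 3 higher and 2 lower, and the members' median was -0.15.

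**Figure D4:**
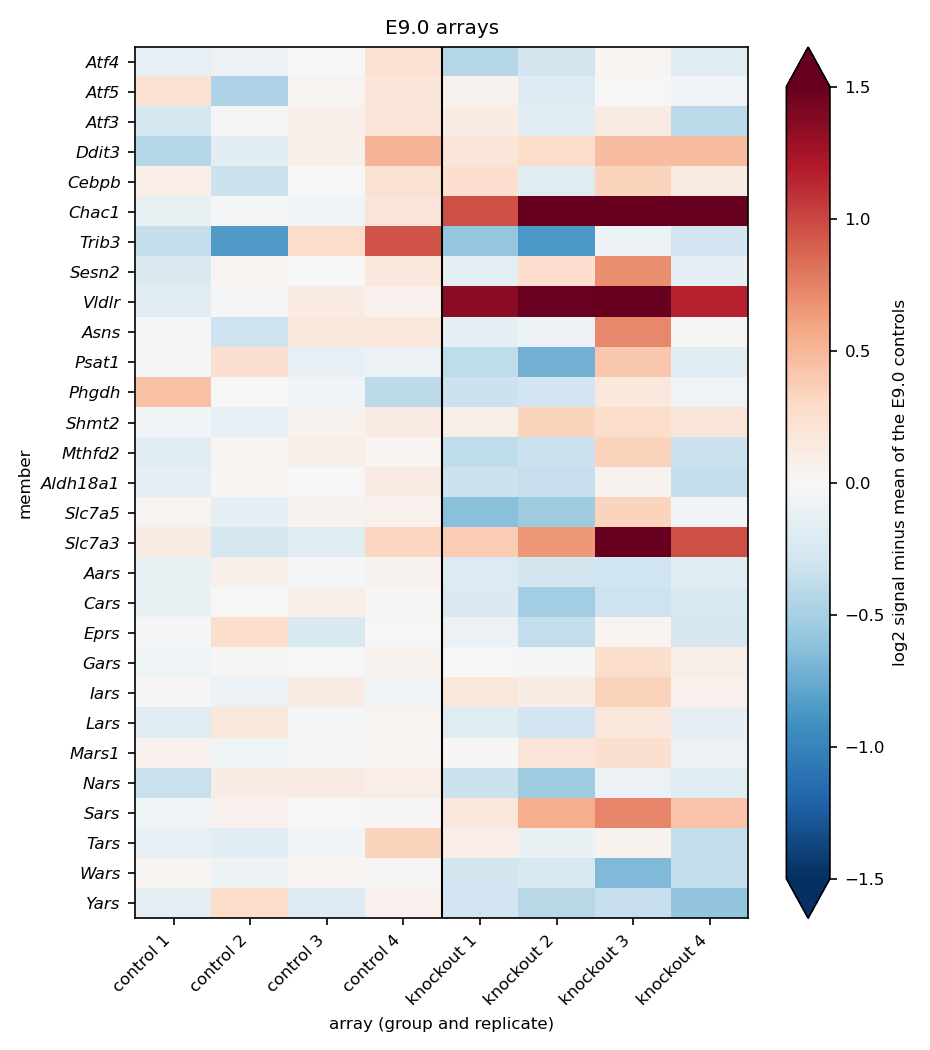
Log2 signal of the 29 members on the 8 arrays of E9.0, each minus the mean of the E9.0 controls; columns are arrays and the colour range ends at 1.5, beyond which values share the end colour. Knockout replicate 3 is the reddest column, and the Chac1 and Vldlr rows are red on all 4 knockout arrays.

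From E8.5 to E9.0, 22 of the 29 members in controls and 21 in knockouts were not called. The called shares were 24.1% and 27.6%, and whether they differ from the background was not tested. The control count was 12 with every probe as a feature and 13 with array weights. In controls 7 of 29 were called, against 34.2% of features: Ddit3, Trib3 and Aars rose (15.6% of features rose), and Vldlr, Tars, Atf5 and Lars fell (18.7% fell). In knockouts 8 of 29 were called, against 34.2% of features: Chac1, Ddit3, Cebpb, Sars and Shmt2 rose (16.2% of features rose), and Tars, Lars and Atf5 fell (18.0% fell). The arrays of the stages did not overlap for 7 members in controls (34.7% of features) and 8 in knockouts (29.5%). The brightest Ddit3 probe rose by 0.96 (SE 0.16, limma adjusted p = 0.000213) in controls and by 1.15 (SE 0.16, limma adjusted p = 4.4e-05) in knockouts. The second Ddit3 probe changed by 0.34 in controls, which was not called (limma adjusted p = 0.15 when every probe was tested), and rose by 0.73 in knockouts (limma adjusted p = 0.00524). By its brightest probe Tars fell by 0.51 in either genotype, Atf5 fell by 0.43 and fell by 0.44, and Lars fell by 0.34 and fell by 0.49. Over the alternatives and the fits that left out an array, the control calls of Atf5 and Lars each held in 21 settings and were lost in 6. The knockout call of Atf5 held in 23 and was lost in 4. Both Tars calls and the knockout call of Lars held in all 27.

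Other stage changes were called in a single genotype. Chac1 rose by 2.31 (SE 0.46, limma adjusted p = 0.00106) in knockouts, and in controls changed by -0.56 (SE 0.46, limma adjusted p = 0.38). Sars rose by 0.42 (limma adjusted p = 0.00717) in knockouts, against 0.02 in controls, and the difference of these changes was 0.40 and was not called (limma adjusted p = 0.20). Aars rose by 0.36 (limma adjusted p = 0.00269) in controls, against 0.15 in knockouts; the difference of -0.22 was not called (limma adjusted p = 0.36), and under median scaling the control change was 0.07 and not called. Trib3 rose by 0.89 (limma adjusted p = 0.0169) in controls, with 3 of 4 arrays above background at E9.0 and 1 of 4 at E8.5, against 0.47 in knockouts. Cebpb rose by 0.50 and Shmt2 by 0.32 in knockouts, with limma adjusted p-values of 0.046 and 0.027, against 0.48 and 0.23 in controls. The Cebpb call held in 5 of 11 alternatives and 6 of 16 fits that left out an array, and the Shmt2 call in 8 of 11 and 12 of 16. Without knockout replicate 3 at E9.0 neither was called (limma adjusted p = 0.11 for Cebpb and 0.057 for Shmt2).

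Probes of the same member did not always share a stage change. The brightest Wars probe changed by 0.17 in controls and was not called, while the 3 dimmer probes rose by 0.78, 1.10 and 0.58, each called when every probe was tested. The second Eprs probe rose by 0.59 in controls and by 0.63 in knockouts, against 0.07 and 0.04 for the brightest. The second Tars probe changed by -0.13 (limma adjusted p = 0.57) in controls and by -0.03 (limma adjusted p = 0.92) in knockouts, and was not called in either. In controls the second Asns probe changed by 0.57 and the second Iars probe by -0.37, against 0.01 and -0.11 for the brightest. The second Sesn2 probe, detected on 7 arrays, changed by 0.30 in controls and by 0.32 in knockouts, against 0.04 and 0.19. These second probes were called for those changes when every probe was tested, and the brightest were not.

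Markers of other tissues changed with stage. The mean log2 signal of 11 visceral yolk sac endoderm markers was 7.34 to 9.91 on E8.5 arrays and 4.83 to 5.02 on E9.0 arrays, where 5 markers in controls and 4 in knockouts were above background on no array. Of 15 primitive erythroid genes, 14 rose and 0 fell in controls, with a median of 2.80, and 1 rose and 1 fell in knockouts, with a median of 0.49. The erythroid mean was 5.74 to 9.35 on control arrays at E8.5 and 9.40 to 10.85 at E9.0, and 5.02 to 6.85 and 5.85 to 8.5 on knockout arrays. The order of Xist and Kdm5d also differed between the stages in knockouts, as the counts above give. The part of yolk sac endoderm, erythroid cells or embryo sex in the stage changes was not tested. In bulk tissue, fewer cells of a type and less RNA per cell cannot be told apart.

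**Figure D5:**
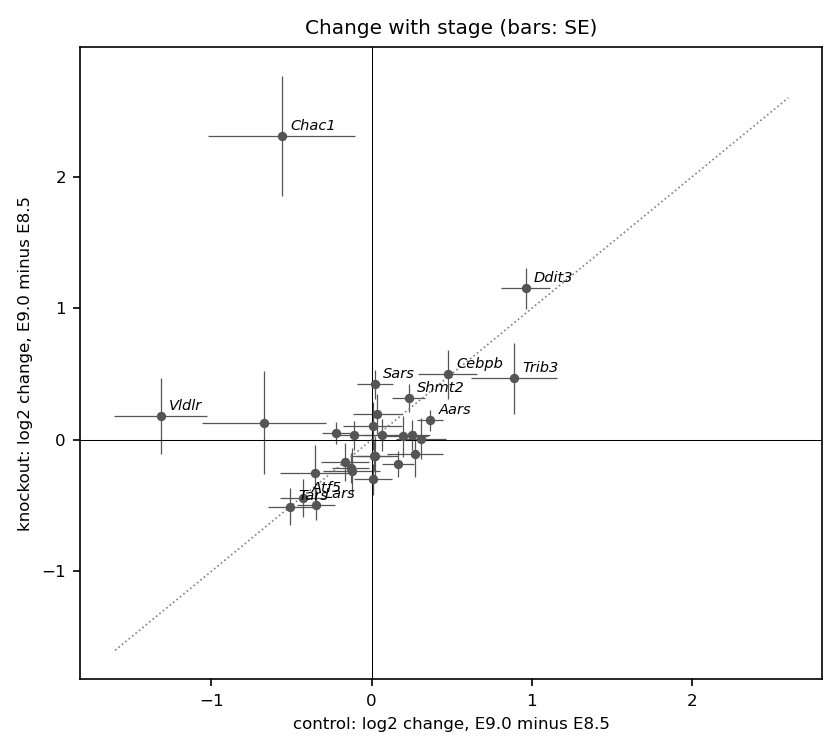
Log2 change from E8.5 to E9.0 of each of the 29 members in controls (horizontal axis) and in knockouts (vertical axis), with SE bars; the dotted line marks equal change and names mark members called in either genotype. Ddit3 (0.96 and 1.15) lies near the line, and Chac1 and Vldlr lie well above it.

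Genes of neighbouring pathways at E9.0 are given by lists. These lists were chosen with earlier results of these data known, so their shares are no independent result. Of 16 tested further genes of the ATF4 response, 6 (37.5%) rose, against 10.6% of features, and 0 fell, against 8.98%, with a median of 0.33 against 0.01 for all features. Ddit4, which inhibits mTORC1 and is also induced by hypoxia, rose by 2.31 (SE 0.30, limma adjusted p = 0.000141), and Stc2, a secreted stress protein, by 1.79 (SE 0.36, limma adjusted p = 0.00298). Without knockout replicate 3 this list had 6 rises and 1 fall, and under median scaling 4 rises and 1 fall. At E8.5 and E8.75 none of the 16 was called, with 0 and 4 at an unadjusted p under 0.05.

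Of 10 further cytosolic ligases and scaffold proteins of the ligase complex, 0 were called, with a median of 0.01, and 5 had an unadjusted p under 0.05. Of 12 mitochondrial ligases 3 rose and 0 fell, so 25% were called, near the background of 19.6% of features. The rises were led by Vars2 for valine (0.77, SE 0.13, limma adjusted p = 0.000791) and Iars2 for isoleucine (0.26, SE 0.09, limma adjusted p = 0.049). The mitochondrial list had 1 rise without knockout replicate 3, and 0 rises and 1 fall under median scaling. Of 9 genes for eIF2alpha kinases and regulators, 0 rose and 2 fell, so 22.2% were called against 19.6% of features, a share near the background. Eif2ak1, the haem-regulated kinase, fell by 0.72 (SE 0.12, limma adjusted p = 0.000791) and Eif2b1, a subunit of the exchange factor, fell by 0.32 (SE 0.10, limma adjusted p = 0.027). Without knockout replicate 3 that list had 1 fall.

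Of 13 tested endoplasmic reticulum chaperones and unfolded protein response genes, 0 rose, 5 fell (8.98% of all features fell) and 8 were not called, with a median of -0.29. The chaperone genes Hyou1 and Calr fell by 0.85 (SE 0.16, limma adjusted p = 0.00207) and fell by 0.71 (SE 0.15, limma adjusted p = 0.0045). Of 5 one-carbon and glycine enzymes Mthfd1 alone was called, which fell by 0.33, and of 8 further amino acid transporters 0 were called, with 1 at an unadjusted p under 0.05 and a median of 0.04.

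The largest list changes at E9.0 concerned hypoxia and blood. Of 17 tested genes of hypoxia and glycolysis, 10 rose (10.6% of all features rose) and 0 fell, with a median of 0.73. Pfkp, a phosphofructokinase, rose by 2.78 (SE 0.31, limma adjusted p = 3.02e-05) and Bhlhe40, a transcriptional repressor, by 2.56 (SE 0.29, limma adjusted p = 3.29e-05). The mean over the 17 genes was 9.51 to 9.91 on knockout arrays and 8.58 to 8.77 on control arrays, without overlap. Under median scaling this list had 6 rises. The part of hypoxia genes in the differences of Chac1, Vldlr and the further ATF4 response genes was not tested.

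Of 15 tested primitive erythroid genes, 0 rose and 11 fell (8.98% of all features fell) in E9.0 knockouts, with a median of -3.00. The anion exchanger Slc4a1 fell by 4.30 (SE 1.13, limma adjusted p = 0.0138) and Alas2, the erythroid enzyme that starts haem synthesis, fell by 4.28 (SE 0.76, limma adjusted p = 0.00117). The mean over the 15 genes was 5.85 to 8.5 on knockout arrays and 9.40 to 10.85 on control arrays. Eif2ak1 is known for its role in erythroid cells, and the part of the erythroid difference in its value or in those of Wars and Yars was not tested. Of 11 yolk sac endoderm markers 0 were called at E9.0, 0 had an unadjusted p under 0.05, and the mean was 4.83 to 5.02 on knockout arrays and 4.85 to 4.94 on control arrays. Of 8 endothelial genes Emcn alone was called, which fell by 2.28, and of 2 tested neural tube genes Irx3 rose by 0.87 (limma adjusted p = 0.043). The neural tube list had 0 rises under median scaling and 0 without knockout replicate 3.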

How the data were processed

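RNA of 24 samples was hybridized as biotinylated cRNA to Illumina bead arrays. The deposited non-normalized table holds probe intensity and a detection p-value, and the submitters' processing notes name GenomeStudio; the deposited value table holds intensity with a normalization that neither labels nor headers describe, with column medians of 77.4 to 77.7, and served as an alternative. Probes were named from the platform annotation: 23978 had 1 symbol, 1719 none and 0 several. Intensities were background corrected with normexp using detection p-values (offset 16), quantile normalized over 24 arrays and log2 transformed with limma 3.58.1 in R 4.3.3. The brightest passing probe stood for each gene, giving 11008 features, 10135 of them named. E8.5 and E9.0 were fitted together over 16 arrays with a mean per group, and E8.75 over its own 8. Differences were tested with lmFit and eBayes, on the log2 scale with its offset, which understates changes of dim genes; p-values were adjusted by Benjamini-Hochberg over all features. The number of arrays limits precision.

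Of the columns, each was matched to its sample by title; 0 were left unused. The headers of 8 control columns, those of E8.75 and E9.0, give stage and replicate but no genotype, and were taken as controls because the knockout columns name theirs. Each column had a rank correlation of 1 with the value table column of its own sample, and of at most 0.951 with any other. Values per array are given for members called between genotypes and for Atf4, and for others where they help; from each other gene list at most 2 rises and 2 falls are named. The members and lists were chosen with earlier results of these data known, so they are not independent of them. Alternatives covered the offset, median scaling, the value table, normalization within the fit, 2 filters (0 and 12 arrays), every probe as a feature, which arrays share a fit, array weights, a replicate block and leaving out each array. One promoter sequence is not reported here.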

Additional observations from a re-analysis of the deposited data

Results flagged for a closer look

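In 174 groups of 4 arrays, 12 had an array whose gap to the nearest other array was larger, as a share of the group's range, than Dixon's critical value; chance flags about 1 group in 20. In knockout E9.0 replicate 3, Aldh18a1 read 9.18 and Mthfd2 8.82, both the highest of their group. In knockout E8.5, Slc7a3 read 9.11 in replicate 4 and Cebpb 7.52 in replicate 1, both high. In control E9.0 the low arrays were Slc7a5 in replicate 2 at 10.29, Wars in replicate 2 at 9.96 and Nars in replicate 1 at 9.18. In control E8.5 the high arrays were Nars in replicate 1 at 9.69 and Mthfd2 in replicate 3 at 8.93. At E8.75 control replicate 4 was high for Asns at 10.85, control replicate 2 high for Cebpb at 7.07, and knockout replicate 3 low for Aars at 10.31.

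The knockout effect on Chac1 differed between E9.0 and E8.5 by 2.87 on the log2 scale (limma adjusted p = 0.037), with all 4 knockout arrays at E9.0 above all 4 controls.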

How the results depend on the processing

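No member's called difference changed sign under any alternative run. Median scaling shifted the median of all features by -0.13 at E8.5, 0.11 at E8.75, -0.10 at E9.0, -0.10 in the control stage change and -0.09 in the knockout one, and gave member medians of -0.19, 0.10, -0.21, -0.17 and -0.19. It left 1023 features called at E9.0, 178 higher and 845 lower (17.4% higher, against 54.2% of the 2158), and 2 members. Array weights gave 9 members at E9.0, 2 at E8.75, 2 in the difference between the E9.0 and E8.5 effects and 13 in the control stage change. That difference had 0 members with an offset of 50, under median scaling, in the deposited value table and without a filter, and 2 with every probe as a feature, which gave 12 members in the control stage change. Over all features, E8.5 (7 called) gave 4 in the value table, 4 without a filter, 1 with all 24 arrays in 1 fit and 1 with the compared groups alone. E8.75 (5 called) gave 2 with an offset of 50, 33 under median scaling, 3 in the value table, 1 without a filter, 2 with every probe, 58 with all 24 arrays and 436 with array weights. The E9.0 minus E8.5 difference (180 called) gave 10 under median scaling, 93 with all 24 arrays and 513 with array weights. Leaving out each array in turn gave 4 to 8 members at E9.0, 0 at E8.5 and E8.75, 0 to 2 in the difference, 4 to 8 in the control and 6 to 9 in the knockout stage change. Member medians ran from -0.05 to 0.00, -0.12 to 0.044, -0.15 to -0.01, -0.10 to 0.03, -0.02 to 0.05 and -0.088 to 0.054, in the order E8.5, E8.75, E9.0, difference, control and knockout stage change. All features ran from 2 to 8, 0 to 78, 1547 to 2502, 57 to 375, 3073 to 4076 and 3090 to 3893. The cause of these shifts was not tested. The deviations of same-numbered arrays from their group means correlated over 0.1 in 5 of 20 pairs, with a range from -0.26 to 0.40. The labels do not say whether equal numbers pair samples, and these correlations cannot settle it. A replicate block gave 5 members at E9.0, 7 and 8 in the stage changes and 1 in the difference. It gave 0 members at E8.5 and E8.75, and 0 features at E8.75. Dim signal limits Yars, Cars and Trib3, which were above background on 18, 11 and 9 arrays.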
